A study of Mus musculus with 10 samples.

Results

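XY and XX mouse kidneys were compared here where both sexes had received 16OHE, to see which autosomal genes that differ between the sexes without it were still different with it. The comparison rests on 4 of the 10 libraries of the series, chosen by their labels: 2 from XY animals and 2 from XX animals, with 1 library of each sex in the Rosa genotype and 1 in the R899X genotype. The labels give the sexes as male and female and give the treatment of these 4 libraries as estrogen. They do not expand 16OHE, which in this field usually names a hydroxyestrone, a metabolite of estrone. R899X is given as a type of Bmpr2 mutation, and Rosa takes the same field in the remaining libraries of this design. The matched controls were the 4 Rosa and R899X libraries of both sexes without 16OHE, and Delx4, another Bmpr2 mutation type, was present in control libraries only and enters where it is named. Every library was made from polyA RNA of frozen kidney pooled from 3 mice. The labels name no strain, age, dose, duration or promoter behind R899X. Part of the animals had received minerals that raise copper. By library number this covers all 4 16OHE libraries and, among controls, the R899X female only. Copper then largely coincides with 16OHE, and within the R899X control pair copper and sex cannot be told apart. By position in the list it covers the 16OHE libraries except the Rosa male, and also the Rosa control female and the Delx4 control male. Under this second reading copper and sex cannot be told apart within the Rosa 16OHE pair or the Rosa control pair.

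The mouse kidney is strongly dimorphic, mainly in the proximal tubule, where androgens acting through their receptor raise the transcripts of many transporters, cytochromes P450 and conjugating enzymes in males. Estrogens can act on the tubule through estrogen receptor alpha, and in intact males they also lower pituitary drive of the testis and so circulating androgen. Prolactin and growth hormone, whose secretion differs between the sexes, are further hormones that act on sex-dependent genes of kidney and liver.

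The 16OHE libraries held 22.3 to 25.9 M reads assigned to genes and the matched controls 19.2 to 29.4 M. Xist, the X-inactivation transcript, stood at 530 and 685 CPM (read counts scaled to library size) in the 16OHE females and at 0.88 and 1.02 in the males, and the Y-linked Ddx3y at 0.23 and 0.08 in the females and 52.5 and 52.7 in the males, as the labels require. Each combination of genotype, treatment and sex was 1 pool, so p-values do not measure the spread between animals. They rest in part on how alike the sex difference was in the Rosa and R899X pairs. With 1 residual degree of freedom in the 4-library fits, they rest largely on an estimate of spread moderated across genes. A gene with unequal pairs could therefore still be called. The predicted transcript Gm42418 moved with sex under 16OHE, at 3.51 and 4.56% of gene reads in the males and 0.96 and 2.64% in the females. In the matched controls it was also higher in the male of each pair, at 2.72 and 4.51% against 2.28 and 2.06%. Its part in the differences below was not tested.

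Under 16OHE, 868 autosomal genes were higher in XY than in XX kidneys and 1008 were lower, out of 15753 tested (5.51% and 6.4%, together 11.9%; edgeR's quasi-likelihood test, Benjamini-Hochberg adjusted p under 0.05). By log2 values rounded to 2 decimals, the difference was over 2-fold for 307 of the higher and 199 of the lower genes. Unrounded values gave 509 for both directions together. The sign was the same in the Rosa and the R899X pair for 1874 of the 1876. The test itself draws on both pairs, so a call nearly requires this and it is no separate support. The total depended on the fit: it was 795 with DESeq2, 801 with a model over all 8 libraries, and, with that model, 255 without the Rosa 16OHE female, 662 without the Rosa 16OHE male, 211 without the R899X 16OHE female, 234 without the R899X 16OHE male and 852 to 1108 without a control library. In the matched controls 1668 genes (10.6%) differed. Of these, 768 (46%) remained different in the same direction under 16OHE, 41 differed in the opposite direction and 859 were not called. The share that remained was 37.1% with DESeq2 and 25.7% in the 8-library model. Fits with a library left out used that model, so they stand beside 25.7% and not 46%. The share was lower still without either 16OHE female or without the R899X 16OHE male. The count of genes in opposite directions was 17 with DESeq2, 20 in the 8-library model, 66 with no filter on low counts, 6 to 11 without 1 of the 16OHE libraries and 11 to 26 without 1 of the control libraries.

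Of the 838 genes higher in XY controls 366 remained (43.7%), and of the 830 lower genes 402 remained (48.4%). Among genes with over 2-fold differences in controls, 204 of 360 and 171 of 284 remained. The differences were smaller on the whole. The median log2 difference of the 838 genes went from 0.88 in controls to 0.37 under 16OHE, and that of the 830 genes from -0.78 to -0.38, while the median over all autosomal genes was 0 in both. The 1668 were chosen by their difference in the control libraries, so these medians, and the direction of the interaction within them, are a description. The test of the difference between the 2 sex differences, an interaction of sex with 16OHE over 8 libraries, called 216 genes (1.37%). It was called for 76 of the 838 and 98 of the 830, with the sign opposite to the control difference, and these include 33 genes called in opposite directions. The 216 were 99 without the Rosa 16OHE female, 122 without the Rosa 16OHE male, 87 without the R899X 16OHE female and 141 without the Rosa control female. At an unadjusted p under 0.05 it had 1721 genes, and DESeq2 called 298 and limma-voom 221. A smaller set of 112 genes remained under stricter conditions, passing in controls and under 16OHE also with DESeq2, with limma-voom, with the 8-library model and with each 16OHE library left out in turn.

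**Figure D1:**
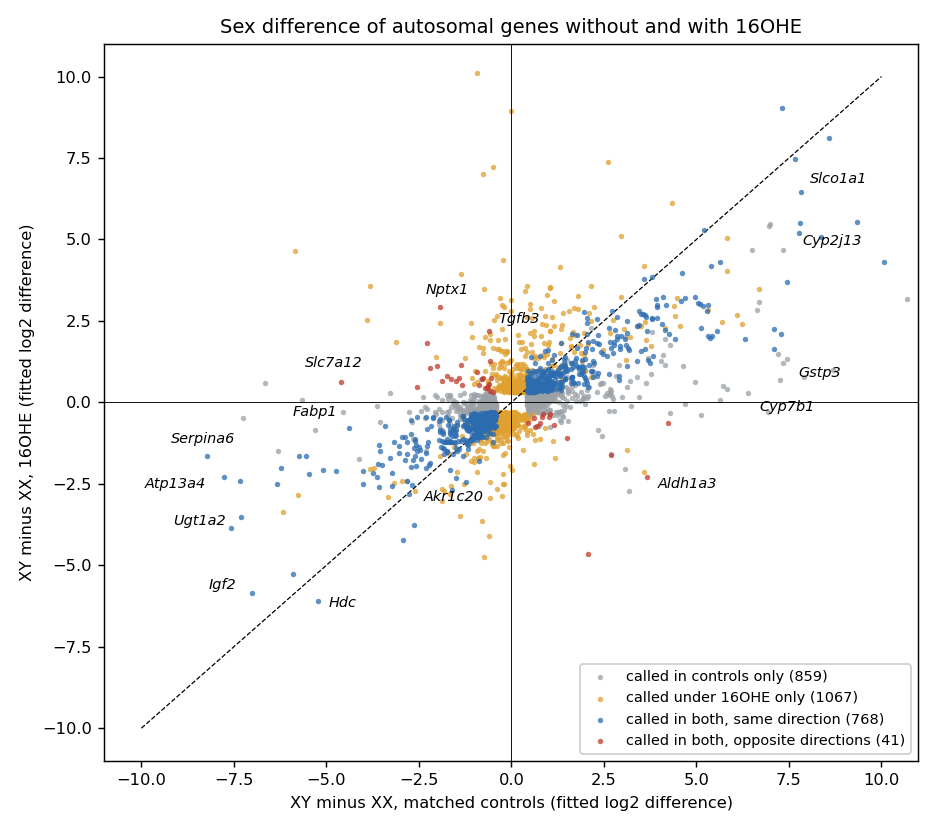
Fitted log2 difference between XY and XX kidneys for autosomal genes called in controls, under 16OHE or in both, with the matched controls on the horizontal axis and 16OHE on the vertical axis; each point is a gene, coloured by where it was called, and the dashed line marks equal differences. Slco1a1 (7.82 and 6.45) and Hdc (-5.24 and -6.1) lie near the line, Cyp7b1 (6.4 and 0.3) lies near the horizontal axis and Slc7a12 (-4.61 and 0.63) lies across it; points beyond 6 on the vertical axis other than Slco1a1 and Hdc are genes of low level.

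Among the genes that remained, the promoters of Hdc, Pzp and Slc17a2 are shown because these genes had large differences, 1 higher and 2 lower in XY kidneys, and their windows hold a motif that was searched. The windows run from 250 bases before to 50 after the start in RefSeq (GRCm38.p6), and capitals mark the receptor hexamer TGTTCT or its reverse complement AGAACA in Hdc and Pzp and the STAT palindrome TTCNNNGAA in Slc17a2.
Hdc, chr2:126618629-126618928, minus strand: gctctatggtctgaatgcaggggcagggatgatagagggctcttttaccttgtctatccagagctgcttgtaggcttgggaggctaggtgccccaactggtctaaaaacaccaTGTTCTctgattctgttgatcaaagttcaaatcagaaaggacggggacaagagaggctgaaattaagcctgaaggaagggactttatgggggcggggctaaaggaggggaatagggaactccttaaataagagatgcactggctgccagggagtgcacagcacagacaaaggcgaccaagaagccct
Pzp, chr6:128526671-128526970, minus strand: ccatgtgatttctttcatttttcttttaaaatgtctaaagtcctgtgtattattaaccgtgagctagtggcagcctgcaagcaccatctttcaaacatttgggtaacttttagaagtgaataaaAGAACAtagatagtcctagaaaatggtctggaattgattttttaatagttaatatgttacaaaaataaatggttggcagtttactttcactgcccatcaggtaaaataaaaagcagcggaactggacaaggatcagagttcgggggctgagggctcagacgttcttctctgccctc
Slc17a2, chr13:23806743-23807042, plus strand: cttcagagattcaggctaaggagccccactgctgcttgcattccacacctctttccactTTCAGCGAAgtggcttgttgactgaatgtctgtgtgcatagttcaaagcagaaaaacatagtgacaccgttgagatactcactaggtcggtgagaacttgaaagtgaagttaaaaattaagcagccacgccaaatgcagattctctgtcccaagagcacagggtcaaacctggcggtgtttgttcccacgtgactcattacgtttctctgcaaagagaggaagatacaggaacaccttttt
Both strands were searched and no motif overlapped another in these windows. The hexamer, which androgen and glucocorticoid receptors can bind, was present in 10 of the 50 promoters matched for 72 named genes (20%) and in 19.1% of 25748 promoters. The STAT palindrome was present in 2 of the 50 (4%) and in 8.44% of all, and the palindromic estrogen response element in 0 of the 50 and in 0.066% of all. The shares of the hexamer in named and all promoters were thus close, and a match of letters is a description only.

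Several transporters remained higher in XY kidneys. Slco1a1 encodes an organic anion transporter that carries steroid conjugates. Its level under 16OHE was 3.37 CPM in the Rosa and 2.85 in the R899X female, against 149 and 478 in the males. The males lay far above the females in both pairs, with a log2 difference of 6.45 ± 0.27 (SE; adjusted p = 2.25e-11) beside 7.82 in controls. Slc7a13, an amino acid transporter of the late proximal tubule, stood at 4.67 and 26.3 CPM in the 16OHE females and 431 and 726 in the males. The groups did not overlap (5.52 ± 0.27), although the R899X female was above the Rosa female. Slc22a28, of the organic ion transporter family, was at 1.26 and 2.05 CPM in females and 21 and 40.9 in males, a difference of 4.2 ± 0.16. Slco4c1 (2.62 ± 0.18) and Slc22a30 (3.03 ± 0.16) were higher too, both transporters of organic anions, beside 2.86 and 5.11 in controls. The interaction for Slc22a30 (-2.08, adjusted p = 0.043) was not called with DESeq2 (-2.18), limma-voom (-2.01) or without any 1 of 5 of the 8 libraries (-2.51 to -1.59). Without 1 library at a time, all 5 kept their call under 16OHE.

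Cytochromes P450 and conjugating enzymes formed the next group. Cyp2j13, a P450 of the epoxygenase family, was at 1.11 and 5.98 CPM in the 16OHE females and at 91 and 214 in the males. Both males were above both females (5.54 ± 0.18, adjusted p = 6.45e-13), beside 9.34 in controls, where the females had 0.56 and 0.64 CPM and the males 487 and 325. The interaction for Cyp2j13 (-3.77, adjusted p = 0.00348) was not called in the 8-library model (-4.07) or without the R899X control female (-3.78), the Rosa control female (-4.28), the Rosa 16OHE male (-3.58) or the R899X 16OHE female (-2.54). Cyp2e1, which oxidises small solvents and fatty acids, had 83.9 and 71.7 CPM in females and 435 and 500 in males under 16OHE (2.59 ± 0.12). Cyp2d9, a steroid hydroxylase known for its male-biased expression in mouse liver, differed by 2.23 ± 0.1 and Cyp4b1, a fatty acid hydroxylase, by 1.64 ± 0.13. Cyp4a12a, which makes the vasoactive lipid HETE, had 3.64 and 3.98 CPM in females and 22.2 and 131 in males. Its Rosa and R899X pairs were unequal, at log2 differences of 2.58 and 5.01, and the call was lost without the Rosa 16OHE female (4.39) and without the R899X 16OHE female (3.92). Ugt2b37, which joins glucuronic acid to steroids and drugs, stood at 0.99 and 2.68 CPM in females and 53.8 and 78.4 in males (5.21 ± 0.16). Ugt8a, which adds galactose to ceramide, differed by 2.69 ± 0.11. Of the 16 tested UDP-glucuronosyltransferases, 6 were higher and 6 lower in XY under 16OHE, beside 7 and 5 in controls. Over all genes 5.51% were higher and 6.4% lower under 16OHE. Members of the Ugt1a cluster share exons, and the Cyp4a, Ugt2b, Akr1c, Gst and Slc22a families have near-identical members, so how reads were divided among them is uncertain.

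Some enzymes that act on steroids remained different, in both directions. Akr1c21, a hydroxysteroid dehydrogenase, was at 27.7 and 67.2 CPM in females and at 263 and 345 in males under 16OHE, and its difference of 2.79 ± 0.16 was close to the 2.71 of controls. Akr1c14, which reduces dihydrotestosterone and other steroids, was at 136 and 135 CPM in females and 554 and 1150 in males (2.56 ± 0.18). Hsd17b11 differed by 2.09 ± 0.13. Akr1c20, of the same family as Akr1c21, was lower in XY kidneys: 20.9 and 9.54 CPM in females against 2.24 and 1.93 in males, a difference of -2.8 ± 0.21 beside -2.77 in controls. Over the 31 tested genes of the list of steroid-converting enzymes, 7 were higher and 5 lower in XY under 16OHE, beside 8 and 6 in controls and 5.51% and 6.4% over all genes under 16OHE. Of these, 4 higher and 4 lower genes had remained and 1 was called the opposite way.

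Kap, the androgen-regulated protein by which the male mouse kidney is best known, was the most abundant of these genes. It had 6670 and 5900 CPM in the 16OHE females and 18800 and 26500 in the males. Males were above females in both pairs (1.83 ± 0.18, adjusted p = 1.1e-06), with a control difference of 2.31. The call was lost with DESeq2 (1.84) and without the R899X 16OHE female (1.75). Pzp, a broad protease inhibitor, was at 0.69 and 0.96 CPM in females and 14.5 and 44.2 in males. Both males were above both females, a difference of 5.07 ± 0.21 beside 8.37 in controls. The interaction for Pzp (-3.3, adjusted p = 0.00422) was not called in the 8-library model (-3.39) or without the R899X control female (-3.01), the Rosa control female (-3.74), the Rosa 16OHE female (-3.38) or the R899X 16OHE female (-3.4). Sorcs1, a sorting receptor, differed by 3.23 ± 0.21. Acsm3, a medium-chain acyl-CoA synthetase, was called as higher from 1 library: 1.42 and 1.34 CPM in females, 1.4 in the Rosa male and 17.3 in the R899X male. Without that male its difference was -0.24.

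**Figure D2:**
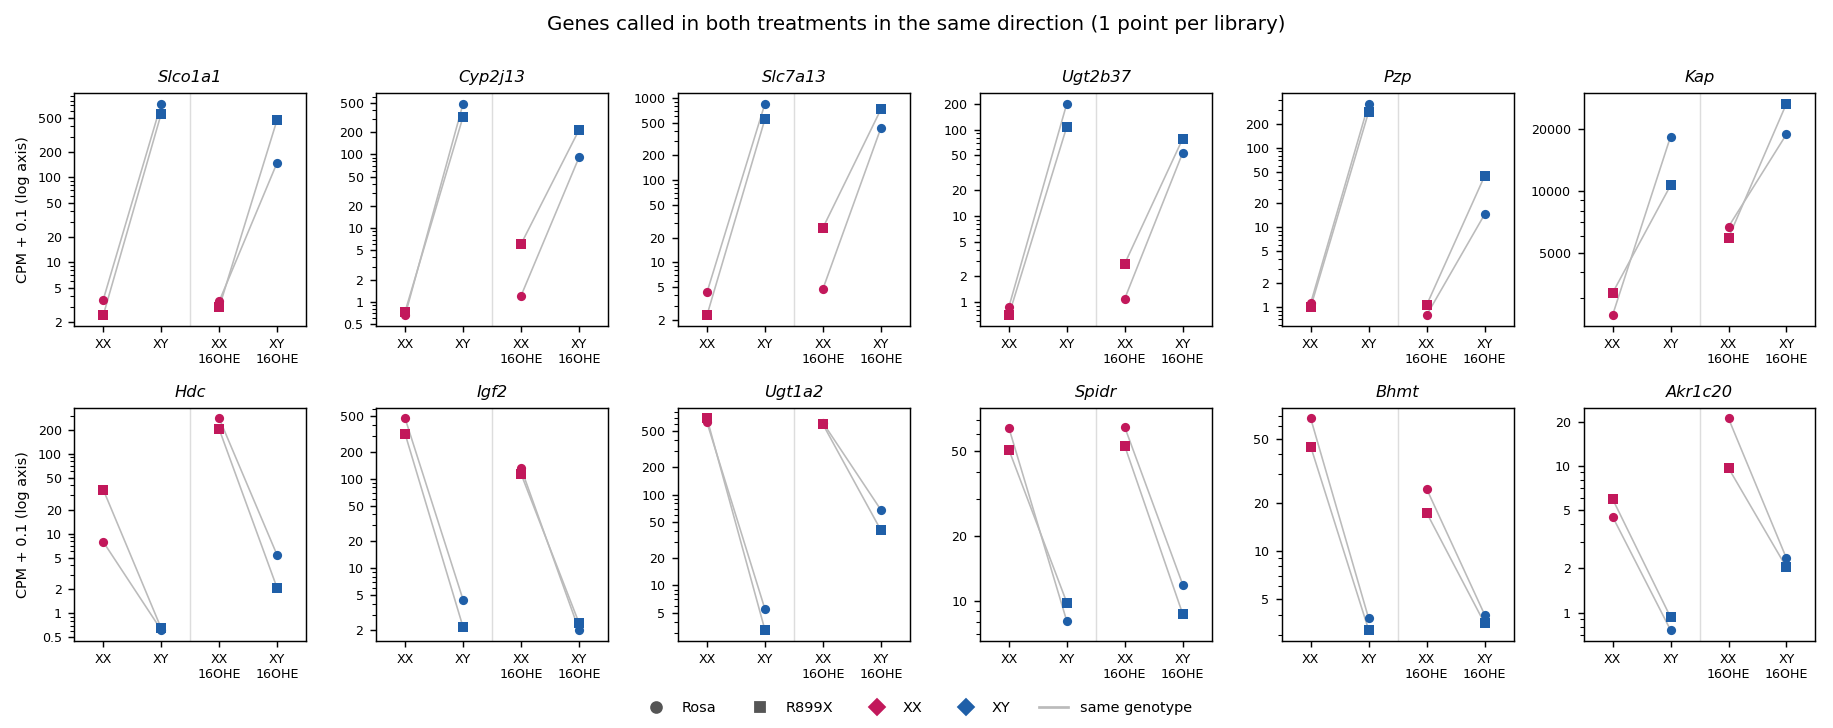
Levels by library of 12 genes called in controls and under 16OHE in the same direction, as CPM plus 0.1 on log axes, with XX and XY libraries without and with 16OHE side by side; circles are Rosa, squares R899X, and lines join the sexes of a genotype. In the upper row both XY points lie above both XX points under 16OHE, as in Slco1a1 (149 and 478 against 3.37 and 2.85 CPM), and in the lower row both lie below, as in Igf2 (1.92 and 2.32 against 131 and 113).

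Genes lower in XY kidneys that remained so were led by an amine-forming enzyme and a growth factor. Hdc encodes histidine decarboxylase, which makes histamine. Under 16OHE it was at 276 and 202 CPM in the females and 5.25 and 1.97 in the males. The log2 difference was -6.1 ± 0.17 (adjusted p = 9.69e-14) beside -5.24 in controls, where the females had 7.77 and 35.3 CPM and the males 0.52 and 0.55. Igf2, the fetal insulin-like growth factor, was at 131 and 113 CPM in the 16OHE females and 1.92 and 2.32 in the males. Both males were again far below both females (-5.84 ± 0.14), and the interaction did not pass (1.16, adjusted p = 0.0639). Ugt1a2, a glucuronidation enzyme, was at 616 and 592 CPM in the females and 67.7 and 40.4 in the males under 16OHE, while the control males had 5.38 and 3.13. Its difference went from -7.3 to -3.53 ± 0.15, with the interaction called (3.77, adjusted p = 0.000865).

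Spidr, a scaffold protein of DNA repair, was at 64.7 and 52.8 CPM against 11.8 and 8.57 (-2.53 ± 0.11), and its control difference of -2.69 was nearly the same in size. Bhmt, which remethylates homocysteine with betaine, was at 24.3 and 17.2 CPM against 3.89 and 3.42 (-2.49 ± 0.16). For Bhmt the interaction was called toward a smaller difference (1.52, adjusted p = 0.0102), since controls differed by -4.01. Slc17a2, of the family of phosphate and organic anion transporters, was at 17.8 and 21.8 CPM in females and 4.17 and 2.75 in males (-2.52 ± 0.19). The control males had only 0.43 and 0.07 CPM of it, so that the control difference of -6.33 rests on very few reads on the male side. Ugt2b34 differed by -2.61 ± 0.13. Myh1, a myosin of fast skeletal muscle, was at 8.8 and 11 CPM in females and 1.32 and 0.08 in males, and the DESeq2 fit did not call it (-4.78). Glutathione transferases, which conjugate reactive compounds, had 8 of 21 tested members lower and 1 higher in XY under 16OHE. In controls 8 were lower and 0 higher, and over all genes 6.4% were lower and 5.51% higher under 16OHE. Gsta2 (-1.73 ± 0.1) and Gsta4 (-1.39 ± 0.1) led by p-value, and without a 16OHE library the count of lower members was 2 to 4.

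Lists of genes with a known bias were taken up with earlier results of these data in view, so their direction in controls is no support for it. All 24 male-biased genes were higher in XY controls. Of these, 18 remained higher under 16OHE, and the median log2 difference of the list was 4.38 in controls and 2.26 under 16OHE, beside 0 over all genes. The interaction was called for 10 of the 24, beside 1.37% of all autosomal genes. Over all autosomal genes 5.32% were higher and 5.27% lower in XY controls, and 5.51% and 6.4% under 16OHE. Of all genes called in controls, 43.7% of the higher and 48.4% of the lower ones remained. The 6 that were not called under 16OHE were Nudt19, Odc1, Hsd11b1, Gusb, Cyp7b1 and Cyp4a12b, with differences of -0.31 to 2.28. All 19 female-biased genes were lower in XY controls, 15 remained lower, 3 were not called (Fabp1, Prlr and Cyp2d12) and Slc7a12 was called the opposite way. Their median was -3.62 in controls and -1.64 under 16OHE, with the interaction called for 13 of the 19. Without the R899X 16OHE male, 9 of the 19 were lower under 16OHE.

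Some of the largest control differences were not detected under 16OHE. Cyp7b1, an oxysterol hydroxylase of bile acid and steroid metabolism, was at 1.02 and 1.46 CPM in control females and 164 and 68.7 in control males. With 16OHE the females had 37.2 and 51.9 CPM and the males 53.4 and 54.9. The 16OHE females thus lay between the control sexes, and the sex difference of 0.3 ± 0.11 did not pass (adjusted p = 0.0912; interaction -6.11, adjusted p = 0.000306). Odc1 encodes ornithine decarboxylase, the entry enzyme of polyamine synthesis and a classical androgen target of mouse kidney. Control males had 1120 and 873 CPM of it and control females 241 and 253. With 16OHE the males had 157 and 251 CPM and the females 230 and 187, and the groups overlapped (-0.06 ± 0.16, interaction -2.06, adjusted p = 0.0106). Inmt, an indolethylamine methyltransferase, kept a smaller difference: 23.2 and 31 CPM in 16OHE males against 8.8 and 5.27 in females (1.94 ± 0.19), where control males had 442 and 219. Its call under 16OHE was lost without the R899X 16OHE female (1.88). Gstp3, a glutathione transferase with 23.9 and 19.3 CPM in control males, was at or below 0.47 CPM in all 4 16OHE libraries.

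Genes of lipid oxidation included several that were lower in XY controls and were not called, or less clearly so, under 16OHE. Fabp1, a fatty acid carrier, went from 41.4 and 14.9 CPM against 1.13 and 0.31 in controls to 2.45 and 1.51 against 1.08 and 1.06. Its levels were low throughout the 16OHE libraries, and the difference of -0.85 ± 0.38 did not pass (interaction 4.45, adjusted p = 0.001). Cyp4a14, a fatty acid hydroxylase, was still called as lower in XY (650 and 621 CPM against 419 and 98.4), but the pairs differed, at -0.63 and -2.66, and it was not called with DESeq2 (-1.64), in the 8-library model (-1.46) or without the R899X 16OHE male (-0.61). Of the 20 PPARA targets and fatty acid oxidation genes tested, 11 were lower in XY controls. Under 16OHE 4 were lower and 1 higher, beside 6.4% and 5.51% over all genes. There were 6 interaction calls, beside 1.37% over all genes. The 4 were Cyp4a14, Acaa2, Acadm and Pdk4, and 1 was lower in the 8-library model, 2 with DESeq2, and 0 to 2 without 1 of the 16OHE libraries. The median of the list was -0.63 in controls and 0.03 under 16OHE.

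Hormone-related genes behaved differently from each other. Prlr, the prolactin receptor, had 140 and 149 CPM in control females and 7.7 and 16.9 in control males. Under 16OHE the males reached the range of the females, at 141 and 71 CPM against 107 and 109 (-0.1 ± 0.16; interaction 3.51, adjusted p = 0.00308). Ren1, which encodes renin, had 263 and 278 CPM in 16OHE females and 229 and 224 in males (-0.25 ± 0.1, not called), after -1.15 in controls; the interaction of 0.89 (adjusted p = 0.0238) was not called without any 1 of 6 of the 8 libraries (0.82 to 0.98). Esr1, estrogen receptor alpha, remained higher in XY, at 19.9 and 24.7 CPM against 11.6 and 15.8 (0.71 ± 0.12), beside 1.45 in controls. That call was lost without any 1 of the 16OHE libraries (0.47 to 0.99). Pgr, the progesterone receptor and a usual estrogen target, was at 5.82 and 6.28 CPM in females and 4.53 and 3.82 in males under 16OHE (-0.54 ± 0.2, not called). Of 14 tested estrogen-responsive genes, 3 were higher in XY under 16OHE (Stc2, C3 and Myc) and 4 lower (Tgfa, Inhbb, Igf1 and Greb1), beside 1 and 2 in controls and 5.51% and 6.4% over all genes under 16OHE. The calls of Myc and Greb1 were lost with DESeq2 (0.68 and -0.49). Of 17 hormone receptors 4 were higher and 1 lower, beside 2 and 2 in controls. Of 16 genes of growth hormone and prolactin signalling, 3 were higher and 3 lower, beside 1 and 5 in controls. Among them was Stat5a, a signal transducer of both hormones, at 105 and 83.3 CPM in males and 57.2 and 64.3 in females (0.63 ± 0.11). Its call was lost without the Rosa 16OHE female (0.55), the Rosa 16OHE male (0.37) or the R899X 16OHE female (0.72).

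A few genes were called in opposite directions. Slc7a12, an amino acid transporter of the proximal tubule, was at 218 and 236 CPM in control females and 11.8 and 7.3 in control males. Under 16OHE it was at 270 and 390 CPM in the females and 394 and 642 in the males. The ranges nearly touch, but the male was above the female in both pairs (0.63 ± 0.11, adjusted p = 0.000694), and the interaction of 5.24 had the smallest p among the named genes (adjusted p = 7.46e-05). The interaction kept its call in every alternative, while the difference under 16OHE alone was not called in the 8-library model (0.64) nor without any 1 of the 16OHE libraries (0.29 to 0.94). Akr1c18, which inactivates progesterone, was at 52.8 and 67.1 CPM in 16OHE females and 202 and 366 in males (2.19 ± 0.12), against -0.6 in controls. Serpina10, an inhibitor of coagulation factors, was at 8.19 and 11 CPM against 25.4 and 44.3 (1.83 ± 0.12), with -2.29 in controls. Nptx1, a neuronal pentraxin, was at 2.03 and 4.85 CPM in females and 29.2 and 22.5 in males (2.94 ± 0.24), with -1.92 in controls. The interaction was called for Akr1c18 (2.8), Serpina10 (4.12) and Nptx1 (4.89), and for 33 of the 41 genes in all.

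In the reverse sense, higher in XY controls and lower in XY under 16OHE, the differences were smaller or rested on fewer libraries. Pcdh7, a protocadherin, was at 28.2 and 31.6 CPM in 16OHE females and 15.4 and 20.5 in males (-0.74 ± 0.11), with 0.7 in controls. The call was lost without the Rosa 16OHE female (-0.67), the Rosa 16OHE male (-0.65) and the R899X 16OHE female (-0.81). Itih2, a carrier of hyaluronan, had 19.6 and 13.5 CPM in control males and 0.56 and 1.12 in control females. Under 16OHE it stood at 4.81 and 4.84 CPM in males and 7.96 and 6.86 in females (-0.62 ± 0.19), a call that was not made with DESeq2, in the 8-library model (-0.61) or without any 1 library (-0.73 to -0.5). Aldh1a3, a retinoic acid-forming enzyme, was called as lower (-2.3 ± 0.53) from the Rosa female, which had 5.24 CPM where the other 3 libraries had 0.43 to 0.63. Without that female the difference was -0.48. In the Delx4 controls Aldh1a3 also went against the other control pairs, at 3.92 CPM in the female and 0.39 in the male. Havcr1, the tubular injury marker KIM-1, went the other way, lower in XY controls and called as higher in XY under 16OHE. It was at 15.5 and 10.5 CPM against 6.39 and 9.16 with 16OHE (0.74 ± 0.2). DESeq2 did not call it (0.75), and without the Rosa 16OHE male the difference was -0.01. The interaction for Havcr1 (2.17) was not called in the 8-library model (2.28), the 10-library model (1.97) or with no genotype term (2.23).

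Other genes were called as different between the sexes under 16OHE and not in controls. Of these, 476 were higher and 591 lower in XY, and the interaction was called for 35 and 7 of them. For the rest, a sex difference limited to 16OHE was not shown. Tgfb2 and Tgfb3 encode ligands of the transforming growth factor beta family. Tgfb2 was at 4.35 and 5.03 CPM in control females and 2.6 and 3.07 in control males. Under 16OHE it was at 42.9 and 57.8 CPM in the females and 160 and 254 in the males (2.02 ± 0.11; interaction 2.74, adjusted p = 0.000518). Both sexes thus had more with 16OHE than without, and the males the most. Tgfb3 was at 10.9 and 9.25 CPM against 41.8 and 45.3 (2.11 ± 0.12; interaction 2.69, adjusted p = 0.00169), and its interaction was not called without the R899X control female (1.97), the Rosa 16OHE male (2.43) or the R899X 16OHE female (2.26). Lrat, which stores vitamin A as retinyl esters, was at 6.01 and 7.07 CPM in females and 24.5 and 39.3 in males (2.26 ± 0.13; interaction 2.49, adjusted p = 0.00359). Ptger4, a receptor for prostaglandin E, was at 7.96 and 7.03 CPM against 19.1 and 30.1 (1.68 ± 0.16; interaction 2.44, adjusted p = 0.00855). Aqp8, a water channel, was at 12.6 and 12.2 CPM against 46.8 and 47.8 (1.93 ± 0.11), and in controls at 1.38 CPM or less. Its interaction (2.36) was not called with DESeq2 (2.53), limma-voom (2.33) or without any 1 of 6 of the 8 libraries (2.04 to 2.63). Stc2, a secreted stanniocalcin, was at 11.9 and 8.75 CPM against 42.7 and 44.2 (2.08 ± 0.12).

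Some further XY-high genes had large differences under 16OHE with no interaction call. Slc22a26, a steroid sulfate and organic anion transporter, was at 42.4 and 77.7 CPM in females and 216 and 292 in males (2.13 ± 0.12). Its control libraries held 9.72 and 21.7 CPM in females and 33.8 and 13.2 in males, so the Rosa and R899X control pairs went opposite ways. Rnf180, a ubiquitin ligase, was at 1.3 and 2.3 CPM against 10.1 and 25.6 (3.26 ± 0.19). Without the Rosa 16OHE female, the R899X 16OHE female or the R899X 16OHE male, Slc22a26 (1.75 to 2.54) and Rnf180 (2.14 to 3.73) were not called. Grid1, a glutamate receptor subunit, was at 0.88 and 0.59 CPM against 10.1 and 4.68 (3.3 ± 0.28). Lower in XY with an interaction call was Nepn, a small leucine-rich proteoglycan, at 24.5 and 29.2 CPM in 16OHE females and 9.86 and 12.9 in males (-1.24 ± 0.12; interaction -1.01, adjusted p = 0.0243). The interaction of Nepn was lost without 5 of the 8 libraries, each left out alone (-1.09 to -0.82). Rnase4, a secreted ribonuclease, differed by -0.7 ± 0.1, and Notum, an inhibitor of Wnt signalling, by -0.47 ± 0.11. Rnase4 was not called without the Rosa 16OHE female (-0.7), the R899X 16OHE female (-0.7) or the R899X 16OHE male (-0.56), and Notum was not called with DESeq2 (-0.46) or without any 1 of the 16OHE libraries (-0.57 to -0.35).

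**Figure D3:**
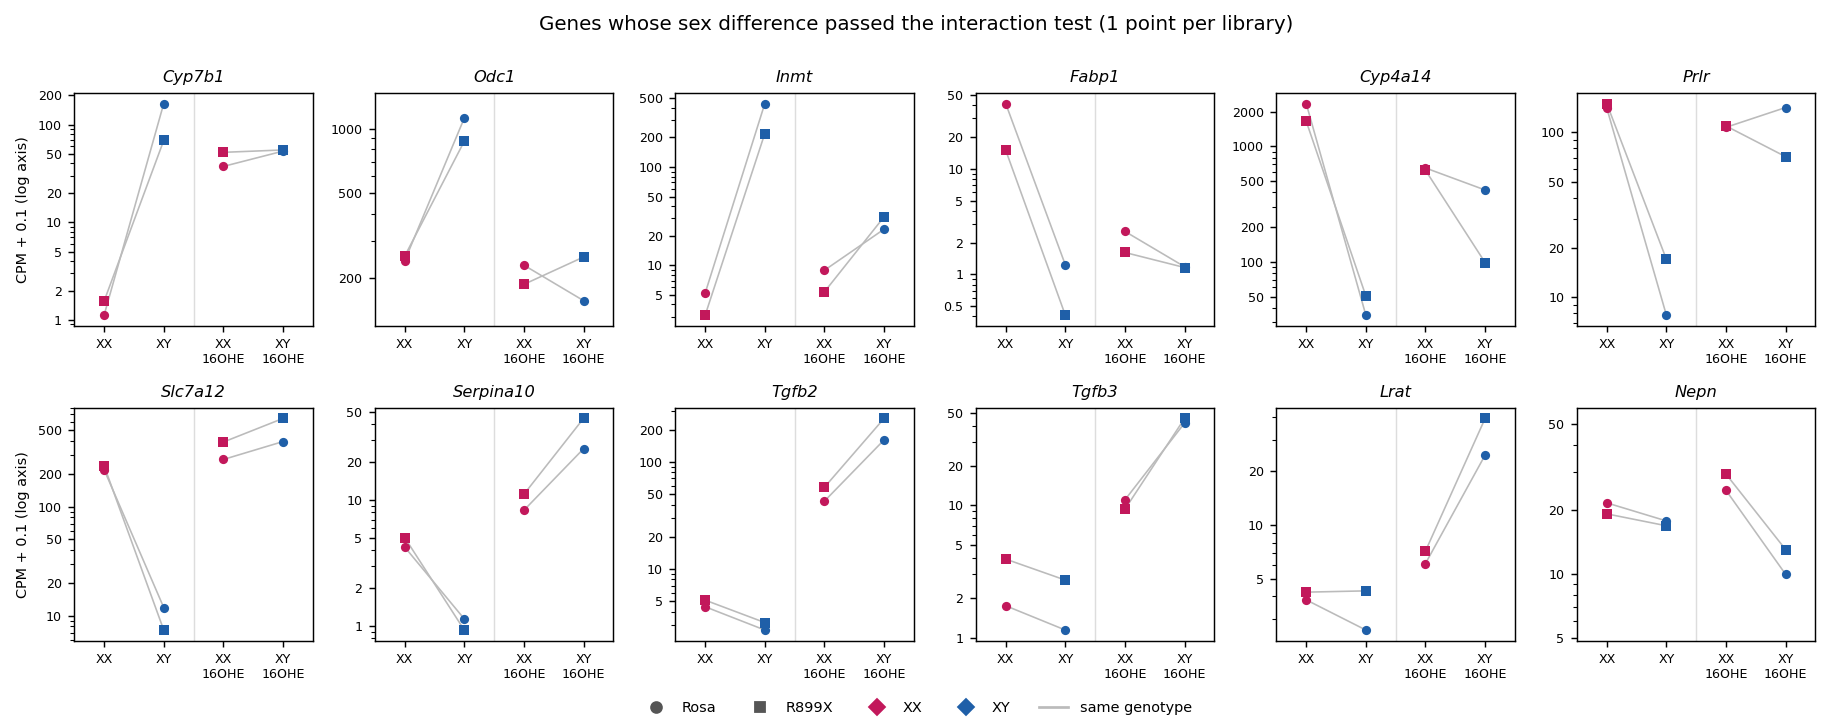
Levels by library of 12 genes whose sex difference passed the interaction test, as CPM plus 0.1 on log axes, with symbols as for the genes that remained. In Cyp7b1, Odc1 and Prlr the control sexes are apart and the 16OHE sexes close or overlapping; in Slc7a12 and Serpina10 the order of the sexes differs between treatments; in Tgfb2, Tgfb3 and Lrat the 16OHE males are highest (160 and 254 CPM for Tgfb2).

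Several lists of markers of cell types outside the proximal tubule also differed between the sexes under 16OHE, where 6.4% of all genes were lower. Other lists did so less or not at all. Of 6 thick ascending limb markers 0 were lower and 1 was higher, although 3 of the 6 were lower in controls. Of 4 tested T cell markers 0 were called under 16OHE. Lower were 2 of 7 principal cell markers, 4 of 6 distal convoluted tubule markers and 4 of 7 intercalated cell markers (1, 4 and 5 in controls). In whole kidney, fewer cells of a type and less RNA per cell cannot be told apart. The part of these marker differences in the gene differences above was not tested. All 7 podocyte markers were lower in XY under 16OHE and 6 of the 7 in controls. Their summed level was 552 and 639 CPM in 16OHE females and 328 and 337 in males, beside 519 and 640 against 317 and 361 in controls. Nphs1, which encodes nephrin of the slit diaphragm, was at 42.1 and 43.9 CPM against 19.1 and 24.2 (-1 ± 0.11). The count was 4 without the Rosa 16OHE female, 3 without the R899X 16OHE female and 2 without the R899X 16OHE male. Of 9 endothelial markers 8 were lower under 16OHE and 3 in controls, with sums of 419 and 417 CPM in females and 295 and 280 in males under 16OHE. Kdr, the main receptor for vascular endothelial growth factor, differed by -0.71 ± 0.1, a call lost without the Rosa 16OHE female (-0.63) or the R899X 16OHE male (-0.6). The endothelial count fell to 4 without the Rosa 16OHE male and to 0 or 1 without each of the other 16OHE libraries.

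All 9 mural and fibroblast markers were lower in XY under 16OHE, where 6.4% of all genes were lower and 5.51% higher. The median log2 difference of these 9 was -0.51 beside 0.11 in controls. Their sum was 388 and 326 CPM in 16OHE females and 277 and 235 in males, beside 182 and 273 against 198 and 276 in controls. Tagln, a smooth muscle actin-binding protein, differed by -0.71 ± 0.11, and it was the only member with an interaction call (-0.82, adjusted p = 0.0481), which DESeq2 did not make. Its call under 16OHE was lost without 3 of the 4 16OHE libraries, each left out alone (-0.8 to -0.62). The count rests on the 4-library fit: it was 2 with DESeq2, 1 with the 8-library model and 0 to 3 with that model and a library left out. Of the 8 markers of the S3 segment of the proximal tubule, 3 were higher and 3 lower in XY under 16OHE, beside 2 and 4 in controls. Of the 12 markers of the S1 and S2 segments, 7 were lower in XY under 16OHE and 1 was higher, against 1 and 1 in controls. The median difference of these 12 was -0.56. Gatm, which starts creatine synthesis, was at 823 and 855 CPM in 16OHE females and 353 and 472 in males (-1.04 ± 0.12), while the organic anion transporter Slc22a6 was higher in XY (0.96 ± 0.12), a call lost without 3 of the 4 16OHE libraries, each left out alone (0.82 to 0.97). Without a 16OHE library, 2 to 5 of the 12 were lower.

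Among blood cell markers, 3 of 6 tested B and plasma cell genes were higher in XY under 16OHE, and 2 of them in controls, beside 5.51% and 5.32% over all genes. Igkc, the immunoglobulin kappa constant region, was at 95.6 and 96.6 CPM in females and 351 and 437 in males (2.03 ± 0.11). The B and plasma cell sum was 130 and 140 CPM against 458 and 586, and no member was called without any 1 of the 16OHE libraries. In matched controls the B and plasma cell sum was 17.4 and 25.1 CPM in females and 53.7 and 311 in males. Under 16OHE 1 of 9 genes of the macrophage list was lower, beside 6.4% over all genes. It was Csf1r (-0.5 ± 0.12), which was not called with DESeq2 (-0.49), in the 8-library model (-0.51) or without any 1 of the 16OHE libraries (-0.74 to -0.26).

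**Figure D4:**
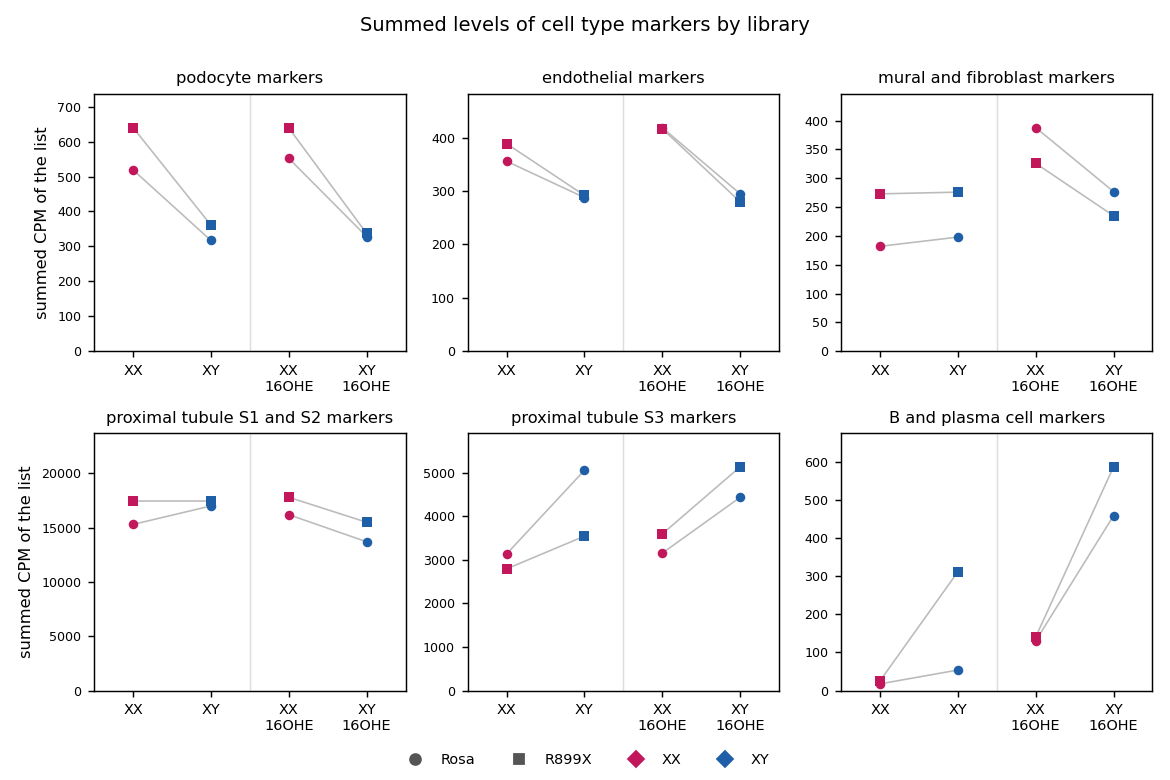
Summed CPM of 6 marker lists by library, on axes that start at 0, with XX and XY libraries without and with 16OHE; circles are Rosa, squares R899X, and lines join the sexes of a genotype. The podocyte sum is lower in XY with and without 16OHE (328 and 337 against 552 and 639 CPM with it), while the mural and fibroblast sum is lower in XY with 16OHE (277 and 235 against 388 and 326 CPM) and nearly level without.

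Other transport and metal-binding genes differed in both directions. Over all autosomal genes 5.51% were higher and 6.4% lower in XY under 16OHE. Of 22 tested SLC22 transporters, 7 were higher and 6 lower in XY under 16OHE (6 and 7 in controls). Of 13 ABC efflux pumps 1 was higher and 6 lower (1 and 5 in controls). Abcc3, an exporter of glucuronides, was at 113 and 204 CPM in females and 48 and 25.5 in males (-2.1 ± 0.25). DESeq2 did not call it (-2.11). Of 26 transporters of phosphate, sodium and glucose, 12 were lower and 1 was higher, nearly as in controls (11 lower and 2 higher). Mt1 and Mt2 encode metallothioneins, which bind zinc and copper and are induced by metals. Both were lower in XY, Mt1 at 87.1 and 52.2 CPM against 136 and 101 (-0.79 ± 0.1) and Mt2 by -0.8 ± 0.1, close to the -1 and -0.98 of controls; without the R899X 16OHE male neither was called (-0.54 and -0.66), nor was Mt1 without either 16OHE female (-0.71 and -0.84).

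Bmpr2, the receptor named in the genotypes, was at 101 CPM in the Rosa female and 93.4 in the Rosa male, and at 300 and 888 in the R899X female and male under 16OHE. The pairs differed (-0.12 and 1.56), and the fitted difference of 0.74 ± 0.24 did not pass (adjusted p = 0.0542). In the matched controls Bmpr2 was at 115 CPM in the Rosa female and 106 in the Rosa male. It was at 223 in the R899X control female and 596 in the R899X control male, so the male was higher there too. Of 20 genes of the BMP list, 2 were higher in XY under 16OHE (Bmp6 and Bmpr1b) and 4 lower (Smad9, Acvrl1, Id3 and Bmp7). The shares over all genes were 5.51% and 6.4%. No gene of the list had an interaction call, which only 1.37% of all genes had. Without any 1 of the 16OHE libraries Acvrl1 (-0.65 to -0.56), Bmp7 (-0.52 to -0.47) and Bmpr1b (0.56 to 0.81) were not called. In controls Bmp6 was called.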

How the data were processed

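Gene counts from 10 polyA libraries of pooled mouse kidney were used. Per the labels' protocols, RNA was extracted with a Qiagen kit and stranded Illumina libraries were made. The authors deposited raw read counts per gene in STAR's layout. The submitters' processing notes name STAR 2.5.1b and HTSeq, and UMD3.1, a cattle assembly, while the identifiers are those of mouse; they name no mouse build. Counts came from the strand that held more reads, and rows for unassigned reads were left out of library sizes. Symbols and chromosomes came from GENCODE M21 (47310 of 47729 identifiers matched).

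Genes passing filterByExpr (minimum count 10, total 15; 16347 genes, of which 15753 autosomal) were scaled by TMM (factors 0.904 to 1.08). Quasi-likelihood models (edgeR 4.0.16, R 4.3.3) were fitted with these terms: genotype and sex within the 4 16OHE and within the 4 matched control libraries, which share no library, and genotype by treatment, sex and sex by treatment over all 8. Benjamini-Hochberg adjustment ran over all tested genes at 0.05. The SE is the size of the log2 difference over the square root of F. Pair differences used CPM plus 0.1. The fit was tested on simulated data.

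Named genes had an established symbol and a mean of at least 2 CPM over the 8 libraries. By rank they were the largest calls under 16OHE, the genes that remained, those reduced, gained or opposite, up to 4 per gene list by p, and a set always shown. Genes outside this rule are named only as members of a count or in the closing section. The members and the 39 lists were chosen with earlier results of these data known. DESeq2 1.42.0, limma-voom (limma 3.58.1), other size factors, filters, strand, model and copper terms, and leaving out each library were tried as alternatives. Promoters came from RefSeq, 1 per gene. Sequence reads were not used here. Some genes are not reported here.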

Additional observations from a re-analysis of the deposited data

Results flagged for a closer look

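The sex difference under 16OHE departed from that of the matched controls, by the interaction test, for the genes listed here with the log2 interaction (difference under 16OHE minus difference in controls; edgeR, Benjamini-Hochberg over all tested genes). Among genes higher in XY controls whose difference was smaller under 16OHE were Gstp3 (-6.14), Cyp7b1 (-6.11), Inmt (-4.37), Cyp2j13 (-3.77), Loxl4 (-3.48), C4a (-3.39), Pzp (-3.3), Ugt2b37 (-2.56) and Odc1 (-2.06). Among genes lower in XY controls whose difference was smaller were Serpina6 (6.58), Atp13a4 (5.44), Fabp1 (4.45), Cyp4a14 (3.92), Slc17a2 (3.81), Ugt1a2 (3.77), Prlr (3.51), Bhmt (1.52), Ugt2b34 (0.97) and Ren1 (0.89). The control males held 0 to 0.03 CPM of Serpina6 and 0.03 to 0.05 of Atp13a4, so the size of those interactions depends on how the fit treats counts near 0.

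Genes lower in XY controls and higher under 16OHE were Slc7a12 (5.24), Nptx1 (4.89), Serpina10 (4.12), Adamts8 (3.27), Wfdc16 (3.13), Il18bp (2.52) and Havcr1 (2.17). Genes higher in XY controls and lower under 16OHE were Aldh1a3 (-5.96), Itih2 (-4.85), Rtp3 (-4.3), Tsku (-1.82) and Pcdh7 (-1.44). Called as higher in XY under 16OHE and not called in controls were Tgfb2 (2.74), Tgfb3 (2.69), Ano5 (2.65), Arsi (2.53), Lrat (2.49), Ptger4 (2.44) and Aqp8 (2.36). Called as lower in XY under 16OHE and not called in controls were Adamts2 (-1.65), Nepn (-1.01), Notum (-0.86), Rnase4 (-0.85), Tagln (-0.82), Serping1 (-0.76) and Lrp1 (-0.72). Of the 57 genes named by the rule that had an interaction call, 26 kept it with each library left out in turn and 21 in every alternative. In the Delx4 control pair Loxl4 stood at 5.42 CPM in the female and 0.39 in the male and Aldh1a3 at 3.92 and 0.39, the reverse of the other control pairs.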

How the results depend on the processing

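The count of genes called under 16OHE, 1876, was 795 with DESeq2, 840 with no genotype term, 801 in the 8-library model, 729 in the 10-library model, 702 and 894 with a term for copper by library number and by list position, and 509 with a 2-fold threshold; it was 211 to 1108 with a library left out. Of the calls in these fits, 96.4 to 100% were among the 1876. The control count, 1668, was 965 with DESeq2, 3309 in the 10-library model, 2604 and 3350 with copper by library number and by list position, and 2548 over 6 control libraries. The interaction count, 216, was 803 with no filter on low counts, 385 in the 10-library model and 87 to 301 with a library left out. The share of dimorphic genes that remained, 46%, was 28.2% with no genotype term, 25.7% in the 8-library model, 16.1% in the 10-library model, 17.8 and 19.9% with copper by library number and by list position, and 9.62 to 39.9% with a library left out. The other alternatives kept these counts within 1.5 times. Fits with a library left out used the 8-library model. Each leaves 1 sample in an arm, which is assumed to vary like the others. Of 153 named genes called under 16OHE, 52 kept the call in all 19 alternatives; the sign turned for Acsm3 without the R899X 16OHE male (range with a library left out -0.24 to 3.97) and for Havcr1 without the Rosa 16OHE male (-0.01 to 1.48). The cause was not tested. Of the 768 genes that remained, 743 also did so with limma-voom, 452 in the 8-library model and 356 with DESeq2. The main fits are paired by genotype, and the values with no genotype term are those without this pairing. By replicate number, no paired analysis was possible because the labels give none.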

Other observations

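Below the level set for named genes, a pair of developmental genes had reads in both XY 16OHE libraries and none in either XX 16OHE library; they were picked out after their values were seen. Pax9, a transcription factor, was at 2.85 CPM in the Rosa and 8.42 in the R899X 16OHE male, and at 0.1 CPM or less in the 4 matched controls. Gbx2, a homeobox factor, was at 1.52 and 3.5 CPM in the 16OHE males and at 0 in the matched controls. Neither gene had an interaction call.

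Ccnd1 and Pdk4 fall outside the rule for named genes and were chosen after their values were seen. Ccnd1, which encodes cyclin D1, was higher in XY controls, at 508 and 524 CPM against 184 and 222 (log2 1.35), and was not called under 16OHE, at 202 and 238 CPM in males and 257 and 273 in females (-0.27). Its interaction was called (-1.62, adjusted p = 0.00186 by edgeR). Pdk4, a kinase that restrains pyruvate oxidation, differed by -2.54 in controls and by -0.44 under 16OHE (interaction 2.1, adjusted p = 0.0367).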
